A study of Mus musculus with 22 samples.

Results

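The predicted mouse genes *Gm10800*, *Gm10801*, *Gm10717*, *Gm10718*, *Gm21738* and *Gm19096*, were followed through the brain libraries of 2 mouse models of Prader-Willi syndrome. They are 6 of the 55409 genes counted in the PWS-cr series and of the 55406 counted in the PWS-IC series. They were chosen by name, as repeat-derived entries selected on their measured variation between these libraries, so the size of that variation is a description and was not tested. All 6 had at least 10 counts in at least 4 libraries of the PWS-cr series, whereas only *Gm10800* reached that level in the PWS-IC series.

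The study sequenced poly(A) RNA from whole brains of newborn pups (postnatal day 0, P0). PWS-cr pups were heterozygous for the *Snord116* deletion of the line B6(Cg)-Snord116tm1Uta/J on the paternal chromosome (m+/p-), and PWS-IC pups were heterozygous for a paternal deletion of the imprinting centre. Each model was compared with its own wild-type (WT) littermates, and no group received a treatment. A CD1 by C57BL/6 cross is described for the behavioural cohort of PWS-cr mice, and the background of the P0 pups is not given in the sources used here. Both deletions are carried in every cell of the pup, and each library is 1 whole brain, so fewer cells of a type and less RNA per cell cannot be told apart. Counts were available for 6 PWS-cr and 5 WT libraries from 4 litters, with 45798407 to 55563780 counts each, and for 4 PWS-IC and 5 WT libraries from 2 litters, with 49063929 to 62103143 counts each. Litters were read from the first number of each library name, so that 1_2_Cr is pup 2 of litter 1 of the PWS-cr series. A list of 14 brain markers summed to 7139 to 8451 CPM (counts scaled to a library of 1000000) over all libraries. The library labelled 1_3_IC (PWS-IC) had 18116 counts of *Snrpn*, which the PWS-IC deletion silences, where the other 3 PWS-IC libraries had 255 to 425. The library labelled 1_7_IC (WT) had 343, where the other 4 WT libraries of that series had 12281 to 16556, so that both went against their labels. Both sexes were labelled in each group of the PWS-cr series. All 4 PWS-IC libraries were labelled female, and of their WT libraries only 1_1_IC was, so sex and genotype are hard to separate there. Library 1_3_IC, labelled female, had 64 counts of *Xist*, and 1_7_IC, labelled male, had 124574, which also went against their sex labels.

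Satellite DNA consists of short sequences repeated head to tail over long stretches, and the major satellite of the mouse fills the pericentromeric heterochromatin beside the centromere of most chromosomes. This chromatin is compact and marked by histone methylation and HP1 proteins, and its transcripts are usually rare. Gene models placed on such repeats are predictions, and a read from one copy can map to many others.

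Of the 6 genes, 5 carry the satellite repeat and 1 does not. On mm10, *Gm10801* (chr2:98662237-98664083, plus strand) and *Gm10800* (chr2:98666547-98667301, minus strand) are neighbours. *Gm10718* (chr9:3023547-3025218) and *Gm10717* (chr9:3025417-3033289) lie next to each other on the plus strand, and *Gm21738* (chr14:19415857-19418930) lies on the minus strand. GENCODE vM21 gives these 5 as protein coding, with gaps between the exons of *Gm10800* of 1 to 65 bases and 9 transcripts for *Gm10717*. Their first transcripts are 504 to 684 bases long, each a multiple of 3, with a GC content of 34.3% to 36.0%. The sources used here give no function for the predicted proteins. *Gm19096* (chr8:31380551-31381316, minus strand) is annotated as a processed pseudogene of 1 exon and 766 bases, with a GC content of 46.9%.

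The repeat was read from the transcripts themselves by setting each against itself at every shift from 20 bases up to the midpoint of its length. The best shift was 234 bases in *Gm10717*, *Gm10718* and *Gm21738*, where 64.9%, 62.6% and 62.4% of bases were identical. It was 225 bases in *Gm10800* (56.3%) and 231 bases in *Gm10801* (52.7%), against a median over all shifts of 30.7% to 31.6% in these 5. A second peak stood at 58 bases in all 5, as is known of the shorter units inside the major satellite. *Gm19096* reached no more than 32.4% at any shift, against a median of 26.8%.

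**Figure D1:**
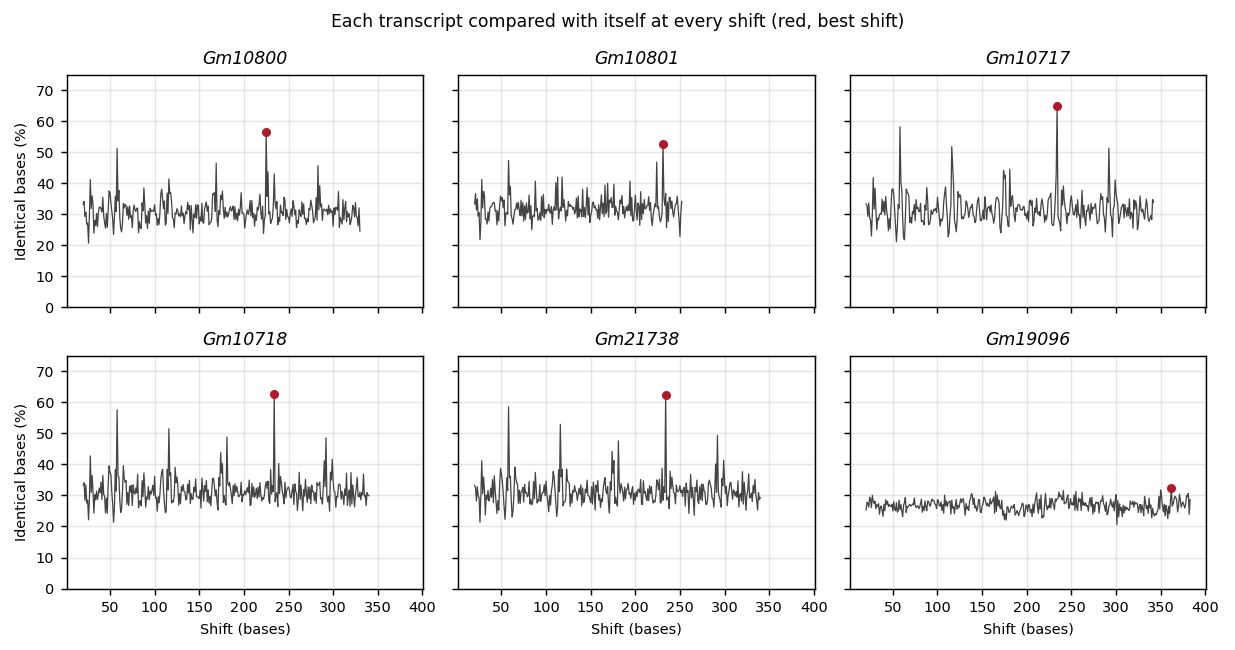
Percent of identical bases (vertical axis) when the first transcript of each gene is compared with itself at a given shift in bases (horizontal axis); the red point is the best shift. The 5 satellite genes show a peak at 225 to 234 bases and another at 58 bases, and *Gm19096* shows none above 32.4%.

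One repeat unit of each of the 5 genes is printed because it shows how nearly alike they are, which bears on every count given here. The stretches are from the GENCODE vM21 transcripts on mm10, 5′ to 3′, aligned to the first 234 bases of the *Gm10717* transcript; capitals mark the 199 positions of the unit (85.0%) with the same base in all 5.
Gm10800: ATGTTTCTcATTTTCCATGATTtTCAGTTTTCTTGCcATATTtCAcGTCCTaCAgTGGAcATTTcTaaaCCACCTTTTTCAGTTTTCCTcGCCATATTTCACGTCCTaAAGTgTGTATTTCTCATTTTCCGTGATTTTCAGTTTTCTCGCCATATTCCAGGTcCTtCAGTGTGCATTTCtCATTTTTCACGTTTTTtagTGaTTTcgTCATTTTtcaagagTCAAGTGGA
Gm10801: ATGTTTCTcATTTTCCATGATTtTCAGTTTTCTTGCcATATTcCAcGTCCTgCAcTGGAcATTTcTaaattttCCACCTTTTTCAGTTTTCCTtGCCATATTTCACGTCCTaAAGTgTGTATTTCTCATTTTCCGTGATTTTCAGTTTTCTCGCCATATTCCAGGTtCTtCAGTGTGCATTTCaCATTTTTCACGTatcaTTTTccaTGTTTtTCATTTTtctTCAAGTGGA
Gm10717: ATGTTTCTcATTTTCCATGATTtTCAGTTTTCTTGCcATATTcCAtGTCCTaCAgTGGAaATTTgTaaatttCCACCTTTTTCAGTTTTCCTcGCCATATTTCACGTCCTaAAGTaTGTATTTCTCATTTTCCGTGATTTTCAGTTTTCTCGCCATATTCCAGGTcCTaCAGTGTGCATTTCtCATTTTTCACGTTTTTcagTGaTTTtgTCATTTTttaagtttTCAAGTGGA
Gm10718: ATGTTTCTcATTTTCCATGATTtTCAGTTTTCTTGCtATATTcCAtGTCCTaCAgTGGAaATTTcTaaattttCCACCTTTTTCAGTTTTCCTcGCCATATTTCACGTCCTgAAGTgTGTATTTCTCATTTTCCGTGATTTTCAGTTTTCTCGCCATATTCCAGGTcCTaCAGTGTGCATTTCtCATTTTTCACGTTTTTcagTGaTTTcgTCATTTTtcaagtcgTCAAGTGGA
Gm21738: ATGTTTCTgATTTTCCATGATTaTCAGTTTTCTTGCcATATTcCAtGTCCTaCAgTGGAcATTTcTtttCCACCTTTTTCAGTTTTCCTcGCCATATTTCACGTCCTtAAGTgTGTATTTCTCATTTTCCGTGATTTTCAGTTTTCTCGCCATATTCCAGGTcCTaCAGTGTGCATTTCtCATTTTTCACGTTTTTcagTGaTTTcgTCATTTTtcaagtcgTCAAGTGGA
The longest run of capitals is 49 bases. Over aligned bases the units of *Gm10800*, *Gm10801*, *Gm10718* and *Gm21738* were 95.2%, 94.3%, 96.6% and 95.7% identical to that of *Gm10717*. Of the distinct 20-base words of each first transcript, 47.6% to 59.7% occurred in the first transcript of another of these genes. Over all annotated transcripts, each of the 5 shared at least 10% of its words with each of 12 other genes, the other 4 among them. The authors ordered the alignments of reads with several matches at random, and whether such reads were counted is not stated. The counts of these 5 genes are therefore uncertain one by one.

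*Gm19096* had none of its 747 words of 20 bases in common with the other 5, so the name satellite-like does not describe its sequence. Bases 1 to 737 of it, 96.2% of the transcript, aligned to a transcript of *Dlgap5*, which encodes a protein of the mitotic spindle, with 85.5% identity. *Dlgap5* held 14 of its 20-base words, fewer than some other genes did, and no other gene was aligned to it. The first 200 bases of *Gm19096* are printed to show this match, with capitals for the bases identical to *Dlgap5*.
Gm19096: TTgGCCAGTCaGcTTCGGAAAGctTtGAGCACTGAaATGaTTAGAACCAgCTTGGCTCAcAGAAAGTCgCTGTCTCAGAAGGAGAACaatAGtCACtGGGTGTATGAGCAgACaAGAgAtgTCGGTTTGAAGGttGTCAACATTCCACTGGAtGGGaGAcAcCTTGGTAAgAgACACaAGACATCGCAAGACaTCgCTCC
It also lies inside the span of the long noncoding RNA *7420700N18Rik* on the opposite strand, whose transcript holds 246 of its 20-base words. The libraries were not stranded, so reads of this pair cannot be told apart.

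*Gm10800* had most of the counts. In PWS-cr libraries it had 212 (1_1_Cr), 2044 (1_2_Cr), 162 (1_5_Cr), 1030 (2_2_Cr), 260 (3_5_Cr) and 1701 counts (4_3_Cr), against 2662 (1_3_Cr), 129 (3_1_Cr), 340 (3_6_Cr), 420 (4_1_Cr) and 2408 counts (4_2_Cr) in their WT libraries. Both genotypes held high and low libraries, and their ranges overlapped over most of their width. On the scale of CPM after TMM scaling, which corrects library sizes for composition, the level of *Gm10800* was 17.8 ± 16.5 in PWS-cr libraries and 23.3 ± 24.5 in their WT libraries (SD, n = 6 and n = 5). The SD was about as large as the mean in each.

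High and low libraries also stood side by side within litters. In litter 1 of the PWS-cr series, the pups with 2044 and 2662 counts stood beside littermates with 212 and 162. In litter 4, the pups with 1701 and 2408 counts stood beside 1 with 420, and all 3 pups of litter 3 were low. Litter held 36.3% of the sum of squares of log2 CPM of *Gm10800* in this series, genotype 0.261% and sex 2.81%. For the other 4 satellite genes litter held 33.3% to 62.1%. With 4 litters over 11 libraries, litter takes a larger share than genotype or sex by its number of groups alone. These shares were not tested. The widest step in the ordered values lay between 7.83 CPM (4_1_Cr) and 19.4 CPM (2_2_Cr). Below it lay 6 libraries, 3 PWS-cr and 3 WT, and above it 5, 3 PWS-cr and 2 WT.

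The PWS-IC series stood apart. *Gm10800* had 13 (1_10_IC), 1 (1_3_IC), 24 (4_4_IC) and 41 counts (4_5_IC) in PWS-IC libraries, against 20 (1_1_IC), 47 (1_5_IC), 28 (1_7_IC), 28 (4_3_IC) and 30 counts (4_6_IC) in their WT libraries. The highest of these 9 libraries, with 47 counts, was below the lowest of the 11 libraries of the PWS-cr series, with 129. The level of *Gm10800* was 0.341 ± 0.268 CPM in PWS-IC libraries and 0.546 ± 0.202 CPM in their WT libraries (SD, n = 4 and n = 5). These groups are as labelled, so they include 1_3_IC and 1_7_IC, whose *Snrpn* counts went against their labels. The series differ in litters and model at once, which cannot be told apart, and the sources used here state no difference in handling. The tables were scaled separately, so the difference between the series was not tested.

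The other 4 satellite genes went with *Gm10800* in the PWS-cr series. *Gm21738* had 13 to 206 counts (median 75) in PWS-cr libraries and 21 to 268 (median 43) in their WT libraries. *Gm10801*, the neighbour of *Gm10800* on chromosome 2, had 14 to 200 counts (median 73.5) in PWS-cr libraries and 7 to 266 (median 36) in their WT libraries. The chromosome 9 pair was lower, with 4 to 41 counts of *Gm10717* in PWS-cr libraries and 1 to 49 in their WT libraries. *Gm10718* had 0 to 15 counts in PWS-cr libraries and 0 to 22 in their WT libraries. The 5 libraries highest in *Gm10800* (1_2_Cr, 1_3_Cr, 2_2_Cr, 4_2_Cr and 4_3_Cr) were also the 5 highest in each of these 4 genes. As a description over the 11 libraries, and for genes that share sequence, Pearson's r of log2 CPM between pairs of the 5 satellite genes ran between 0.888 and 0.992.

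**Figure D2:**
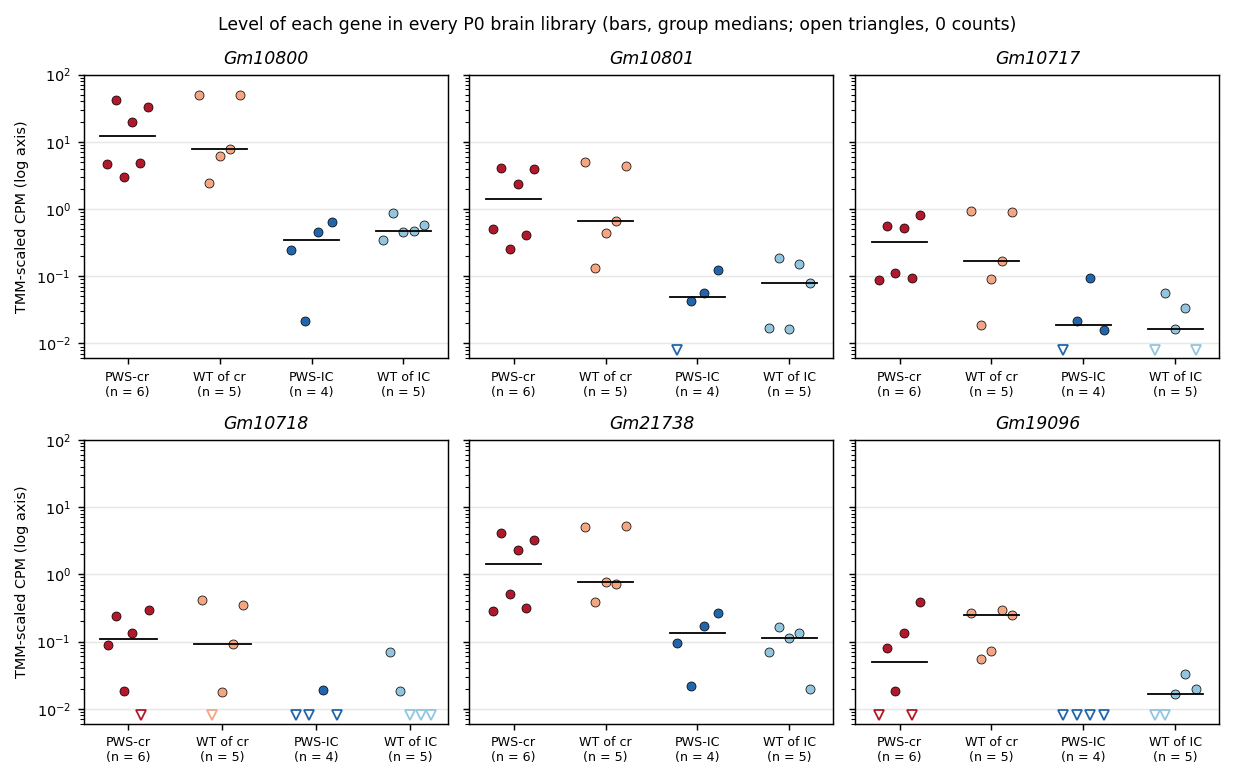
TMM-scaled CPM (vertical log axis) of each of the 6 genes in every library, 1 point per library, by group (PWS-cr n = 6, their WT n = 5, PWS-IC n = 4, their WT n = 5); bars are group medians and open triangles are libraries with 0 counts. In the PWS-cr series *Gm10800* runs between 2.40 and 50.1 CPM with both genotypes spread over that range, and all 9 libraries of the PWS-IC series lie at or below 0.872 CPM.

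Per kilobase of annotated exon, *Gm10800* was highest in the PWS-cr series, with a median of 11.9 CPM per kilobase and a range of 3.64 to 76.0. *Gm10801* followed with a median of 1.33 (0.259 to 9.90) and *Gm21738* with 1.14 (0.418 to 7.80), with overlapping ranges. The satellite genes rise and fall together over libraries, so overlap of ranges does not show whether they differ within a library. That was not tested. *Gm10718* had a median of 0.137 CPM per kilobase, *Gm19096* 0.106 and *Gm10717* 0.0435, again with overlapping ranges. The exonic length of *Gm10717*, 3856 bases, joins those of its 9 transcripts.

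*Gm19096* overlapped with the satellite genes in 4 of its 5 highest libraries. It had 0 (1_1_Cr), 4 (1_2_Cr), 1 (1_5_Cr), 7 (2_2_Cr), 0 (3_5_Cr) and 20 counts (4_3_Cr) in PWS-cr libraries, against 14 (1_3_Cr), 3 (3_1_Cr), 4 (3_6_Cr), 16 (4_1_Cr) and 12 counts (4_2_Cr) in their WT libraries. Library 4_1_Cr, low in the satellite genes, had its second highest count, and library 1_2_Cr, high in the satellite genes, had 4. All 3 libraries of litter 4 were among its 4 highest. Litter held 57.6% of its sum of squares, inside the range of the satellite genes (33.3% to 62.1%). Its r with the other 5 genes was between 0.679 and 0.753 over the 11 libraries, and Spearman's rho between 0.692 and 0.747. *Dlgap5*, the gene it was aligned to, had 160 to 336 counts in PWS-cr libraries and 209 to 408 in their WT libraries. The highest count of *Dlgap5* was in 3_6_Cr, where *Gm19096* had 4.

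In the PWS-IC series the 5 genes other than *Gm10800* were near the limit of counting. *Gm21738* had 1 to 17 counts in PWS-IC libraries and 1 to 9 in their WT libraries. *Gm10801* had 0 to 8 counts in PWS-IC libraries and 1 to 10 in their WT libraries. *Gm10717* had at most 5 counts, *Gm10718* at most 4 and *Gm19096* at most 2 in any of the 9 libraries. Differences between genotypes in these genes were not detectable at this depth.

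In the PWS-cr series the shares of *Gm10801* and *Gm21738* varied less between libraries than their levels. Of the counts of *Gm10801* and *Gm10800* together, *Gm10801* had 9.03% over the PWS-cr series (exact 95% binomial interval 8.54% to 9.55%), with single libraries between 5.15% and 10.7%. Of the counts of *Gm21738* and *Gm10800* together, *Gm21738* had 9.36% (8.86% to 9.88%), with single libraries between 5.78% and 14.7%. The highest library, 1_3_Cr with 2930 counts of this pair, had 9.15% (8.13% to 10.2%), and the lowest, 3_1_Cr with 150 counts, had 14.0% (8.88% to 20.6%). Over the PWS-IC series the shares were 14.1% for *Gm10801* (10.2% to 18.8%) and 20.8% for *Gm21738* (16.3% to 25.9%). The intervals of the 2 series do not overlap for either gene, but they cover counting error only. Reads with several matches, if counted, are not independent.

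**Figure D3:**
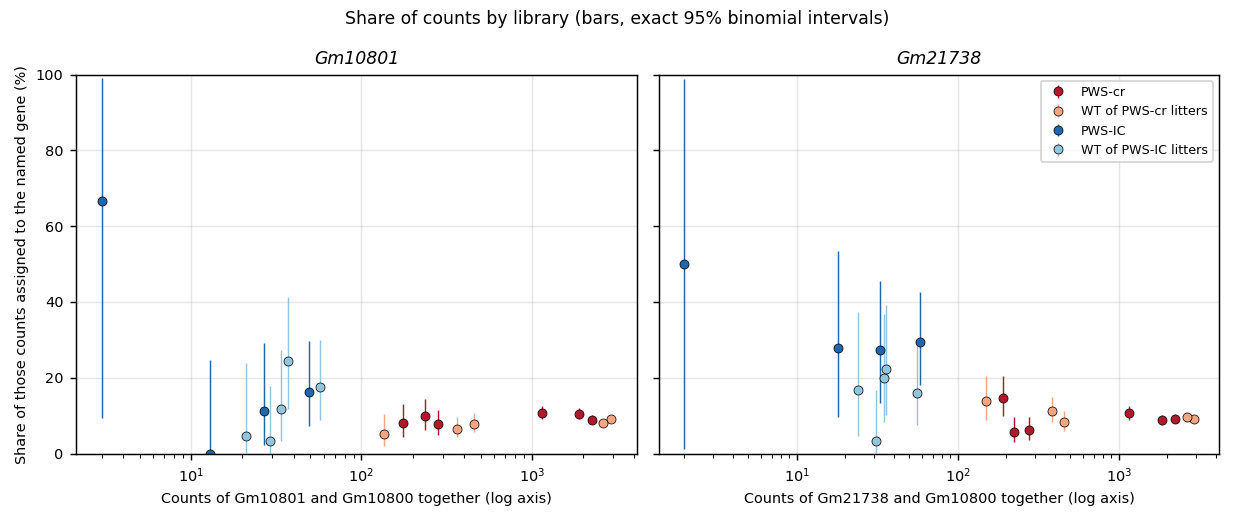
Share in percent (vertical axis) of the counts assigned to *Gm10801* (left) or *Gm21738* (right), out of those of the named gene and *Gm10800* together, against that total (horizontal log axis), 1 point per library coloured by group; bars are exact 95% binomial intervals. Libraries of the PWS-cr series lie between 5.15% and 14.7%, and the intervals widen at the low totals of the PWS-IC series.

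No member was called in a comparison of genotypes. Genotype was fitted with litter in edgeR's quasi-likelihood model within each series, and called genes had a Benjamini-Hochberg adjusted p under 0.05. In PWS-cr against WT, 0 of the 6 members were called, where 0.0135% of the 22172 genes tested were (3 genes); 459 of all genes and none of the members had an unadjusted p under 0.05. DESeq2 called 7 genes and 0 members on the same genes. The log2 fold change of *Gm10800* was -0.54 (SE 0.752), that of *Gm10801* -0.42 (SE 0.782) and that of *Gm21738* -0.83 (SE 0.748), all with an adjusted p of 0.9999 from edgeR. The other 3 ran between -0.90 and -0.53, with SEs of 0.671 to 0.688 and the same adjusted p. Library 2_2_Cr was alone in its litter and carried no information on genotype in this model. The SE exceeded the fold change for *Gm10800*, *Gm10801* and *Gm10717*.

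Of the 4 members that could be fitted without the WT library 1_3_Cr, 3 changed sign. It is the only WT library of litter 1, so without it no library of litter 1 carries information on genotype in this model. *Gm10718* and *Gm19096* then fell below the filter and had no value. Without the WT library 1_3_Cr, *Gm10800* had a log2 fold change of 0.19, *Gm10801* of 0.60 and *Gm10717* of 0.62, against negative values with it. Over the removal of each library in turn *Gm10800* ran between -1.13 and 0.19, and *Gm21738* between -1.43 and -0.23.

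In PWS-IC against WT, 0% of 22367 genes were called by edgeR, with 1840 genes and no member at an unadjusted p under 0.05 and 1 gene by DESeq2. *Gm10800*, the only member tested, differed by -0.85 on the log2 scale (SE 0.539, edgeR's adjusted p = 0.581). Without the libraries 1_3_IC and 1_7_IC, whose *Snrpn* counts went against their labels, it was -0.37 (SE 0.379, edgeR's adjusted p = 0.702) and 53 genes were called. The difference of the 2 genotype effects, PWS-IC minus PWS-cr, was -0.21 for *Gm10800* (SE 1.22, edgeR's adjusted p = 0.977), and 0% of 23771 genes were called, with 1124 at an unadjusted p under 0.05 and 3 called by DESeq2. For the 6 members the adjusted p of this difference ran between 0.841 and 0.977. Without 1_3_IC and 1_7_IC, 43 genes and 0 members were called.

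A list of 28 genes that build or keep heterochromatin, such as the histone methyltransferases that mark it and the HP1 proteins that bind it, was tested in the same fits. None of the 28 was called in PWS-cr, in PWS-IC or in the difference of the models. Of all genes tested in these fits, 3 of 22172, 0 of 22367 and 0 of 23771 were called. Their median log2 fold change was -0.03 in PWS-cr and -0.04 in PWS-IC, beside 0.0034 and 0.0037 over all genes tested in these fits. At an unadjusted p under 0.05 from edgeR there were 0 in PWS-cr, beside 459 of all genes, and 1 in PWS-IC, beside 1840. DESeq2 called none of the 28 on the same genes. Its unadjusted p was under 0.05 for 0 of them in PWS-cr and for 4 in PWS-IC, beside 181 and 2111 of all genes.

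The other entries at these places were also counted. Beside the chromosome 9 pair lie *Gm10722*, *Gm11168*, *Gm10721*, *Gm10720*, *Gm10719*, *Gm17535* and *Gm10715*, predicted genes on the same repeat. Together they had 5 (1_1_Cr), 47 (1_2_Cr), 4 (1_5_Cr), 27 (2_2_Cr), 5 (3_5_Cr) and 32 counts (4_3_Cr) in PWS-cr libraries, against 62 (1_3_Cr), 5 (3_1_Cr), 8 (3_6_Cr), 14 (4_1_Cr) and 41 counts (4_2_Cr) in their WT libraries. The same 5 libraries were the highest, and no library of the PWS-IC series had more than 3. *Gm26870*, a noncoding entry that spans this stretch on the other strand, was not analysed here. *Mir101c* and *Gm9637*, the other neighbours within 50000 bases, had 0 counts in all libraries, and *7420700N18Rik* had at most 4 in the PWS-cr series and 1 in the PWS-IC series.

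Measures of whole libraries are given beside these levels. Genes of olfactory, vomeronasal and taste receptors, which encode the chemical senses and are not typical of brain tissue, summed to 47.8 (1_1_Cr), 72.1 (1_2_Cr), 48.8 (1_5_Cr), 77.3 (2_2_Cr), 42.5 (3_5_Cr) and 86.7 CPM (4_3_Cr) in PWS-cr libraries, against 97.1 (1_3_Cr), 49.2 (3_1_Cr), 53.9 (3_6_Cr), 75.3 (4_1_Cr) and 97.5 CPM (4_2_Cr) in their WT libraries. The 2 libraries highest in *Gm10800*, 4_2_Cr and 1_3_Cr, were the 2 highest in this sum, and 4_1_Cr stood among the high ones although its *Gm10800* level was 7.83 CPM. In the PWS-IC series the sum was 25.8 to 49.6 CPM in PWS-IC libraries and 31.4 to 45.2 CPM in their WT libraries, and library 1_3_IC was lowest in both this sum and *Gm10800*. Of the 2045 receptor genes in the tables, 1265 had a count in PWS-cr libraries and 1286 in their WT libraries, against 697 in PWS-IC libraries and 764 in their WT libraries, and 516 were at 0 in all 20. The number of genes of any kind with at least 1 count was 33835 to 36695 in PWS-cr and 34601 to 37008 in WT libraries, with its highest value in 4_2_Cr, and 31168 to 34937 in PWS-IC and 33413 to 34734 in WT libraries, with its lowest in 1_3_IC. The number of genes was given no test, and the part of these measures in the satellite levels was not tested.

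**Figure D4:**
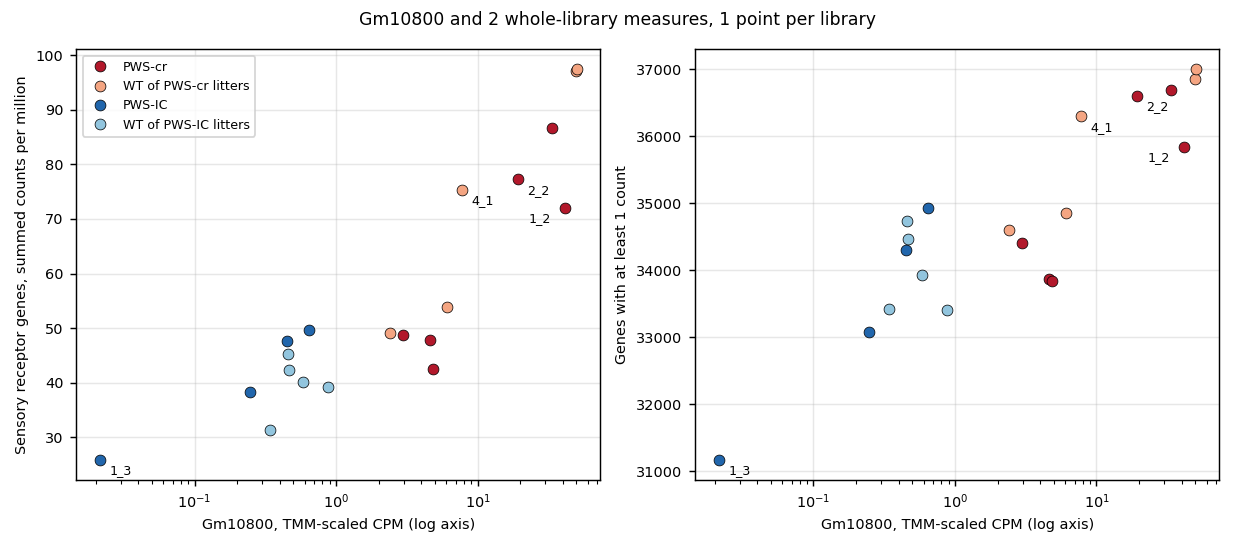
Summed CPM of sensory receptor genes (left, vertical axis) and number of genes with at least 1 count (right, vertical axis) against the TMM-scaled CPM of *Gm10800* (horizontal log axis), 1 point per library coloured by group, with 4 libraries named. Library 1_3_IC is lowest on all 3 measures, and 4_1 of the PWS-cr series has 75.3 CPM of receptor genes at 7.83 CPM of *Gm10800*.

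Relations of *Gm10800* with 9 measures of the libraries were computed over the 9 libraries of the PWS-IC series. In the PWS-cr series they were not tested over all libraries, because these lay on both sides of the step in *Gm10800*. The 9 coefficients computed over the 6 libraries below it are not given, since that set was cut by the level itself. They were counted in the adjustment over 18. *Gm10800* fell as the summed CPM of 12 caudal *Hox* genes, patterning genes of the hindbrain end and spinal cord, rose (Pearson's r = -0.89, exact permutation p = 0.000336, adjusted p = 0.00605; Spearman's rho = -0.90, exact permutation p = 0.00203, adjusted p = 0.0365; n = 9). The *Hox* sum was 32.3 CPM in 1_3_IC, which had 1 count of *Gm10800*, and 0.225 CPM in 1_5_IC, which had 47. Without the 2 libraries farthest from the median of the *Hox* sum, r was -0.81 and no longer passed the correction (exact permutation p = 0.0159, adjusted p = 0.286). Without 1_3_IC and 1_7_IC it was -0.91, with an exact permutation p of 0.00278 and an adjusted p of 0.050. With both values centred within litter and permuted within litter, r was -0.87 (exact permutation p = 0.00139, adjusted p = 0.025). The part of the tissue with *Hox* RNA in this relation was not tested. In the PWS-cr series high and low *Hox* sums stood at both levels of *Gm10800*. The sum was 9.87 CPM in 4_3_Cr (1701 counts of *Gm10800*) and 1.78 CPM in 1_2_Cr (2044 counts). It was 11.4 CPM in 3_5_Cr (260 counts) and 1.05 CPM in 3_1_Cr (129 counts).

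With the sensory receptor sum r was 0.74 in the PWS-IC series (exact permutation p = 0.0214, adjusted p = 0.183, n = 9) and Spearman's rho was 0.57 (exact permutation p = 0.121, adjusted p = 0.543), so neither passed the correction. Centred and permuted within litter, r was 0.69 (exact permutation p = 0.126, adjusted p = 0.598). Without the 2 libraries farthest from the median of the sum, r was 0.24, so the relation rested on those libraries. The other 7 relations were with total counts, mitochondrial, histone, ribosomal RNA, erythroid, dividing-cell and muscle and cartilage genes. They had adjusted p values of 0.418 or more for r and 0.53 or more for rho (exact permutation tests). The histone measure held 9 genes and only 3 to 23 counts per library of this series, so it could show little. With 75 histone genes, newer names included, r was -0.44 (exact permutation p = 0.194, adjusted p = 0.694). Between the series, erythroid genes summed to 90.9 to 143 CPM in PWS-cr and 95.3 to 112 CPM in their WT libraries, and to 371 to 653 CPM in PWS-IC and 137 to 1028 CPM in their WT libraries. The 4 ribosomal RNA entries found of 9 summed to 5396 to 10494 CPM over the PWS-cr series and to 13964 to 23949 CPM over the PWS-IC series. The list of 9 also holds a protein-coding gene and the mitochondrial ribosomal RNA genes, and the mitochondrial measure counts the latter as well. The part of the erythroid and ribosomal sums in the lower satellite counts of the PWS-IC series was not tested.

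Among the 21134 other genes tested in both series, the 5 whose log2 CPM, centred within each series over all 20 libraries, was most like the mean of the tested members were *Gm42763* (r = 0.87), *Gm38169* (r = 0.86), *Gm37633* (r = 0.85), *Dnah12* (r = 0.85) and *Pkhd1l1* (r = 0.84). The first 3 are predicted entries annotated as still to be tested by experiment. *Dnah12* encodes a dynein heavy chain of cilia, with 73 to 181 counts in the PWS-cr series and 63 to 190 in the PWS-IC series. These genes share libraries and depth with the members, and the coefficients are a description. Their range was narrower than that of *Gm10800*, whose highest library of the PWS-cr series was 20.9 times its lowest in CPM.

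The spread itself was wide beside that of other genes, which is what the members were chosen for. With a prior count of 2, the distance between the highest and the lowest library of the PWS-cr series was 4.36 on the log2 scale for *Gm10800*, 4.90 for *Gm10801*, 4.07 for *Gm10717*, 3.55 for *Gm10718*, 4.05 for *Gm21738* and 3.49 for *Gm19096*. By the SD of log2 CPM the 6 ranked between 31 and 84 of the 22172 genes tested, in the order *Gm10801*, *Gm10800*, *Gm21738*, *Gm10717*, *Gm10718* and *Gm19096*. In the PWS-IC series the distance was 3.98 for *Gm10800*, rank 168 of 22367, and 1.69 without library 1_3_IC.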

How the data were processed

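Counts were available for 20 of the 22 labelled libraries. The other 2 are labelled WT and are not analysed here. The authors report that they removed an outlier seen by clustering in the samples of each model. Whether these outliers are the 2 libraries without counts is not stated. The authors mapped reads to mm10 with STAR, ordering the alignments of reads with several matches at random, and counted reads per gene with featureCounts. Whether reads with several matches were counted is not stated. The libraries were unstranded. Only the deposited raw counts were used. The 60 columns of scaled values and the authors' own DESeq2 comparisons (fold changes and p values, wild type over mutant) were left aside.

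Genes that reached 10 counts in 4 or more libraries were fitted in edgeR 4.0.16 (R 4.3.3, limma 3.58.1) with TMM scaling, litter and genotype, each series alone, with calls at an adjusted p under 0.05; the SE is the log2 fold change over the square root of F. Both models were compared in 1 fit over all libraries. The scripts were tested on simulated data. Log2 CPM used a prior count of 2. Intervals cover counting error only, and p values measure the spread between pups. Sequences and positions are from GENCODE vM21 on mm10 (biopython 1.88). Relations used exact permutation tests, two-sided, with Benjamini-Hochberg adjustment over 18; a coefficient pooled over all libraries had been planned and is not given, because the PWS-cr libraries fell on both sides of a step.

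Members and lists were chosen with earlier results of these data known. Named were the 6 members, all entries within 50000 bases, the 5 most alike genes tested in both series, and up to 4 called heterochromatin genes. *Dlgap5*, *Snrpn* and *Xist* fall outside this rule and were named after their values were seen. Alternatives were DESeq2 1.42.0, RLE scaling, totals that leave out erythroid and mitochondrial genes, no filter, no litter, sex, and the removal of libraries. Chosen after seeing the data were *Gm10800* alone, newer histone names, the olfactory and vomeronasal receptors apart, and relations within litter.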

Additional observations from a re-analysis of the deposited data

Results flagged for a closer look

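Of 28 combinations of a gene or receptor sum with a group, 3 held a library set apart from the others of its group by its gap to the nearest one. For values without ties chance alone sets apart about 1 in 20. That rate need not hold for counts at or near 0, such as those of *Gm10718* below. *Gm19096* was at 0.393 CPM (20 counts) in the PWS-cr library 4_3_Cr, beside 0 to 7 counts in the remaining 5 libraries of that genotype. *Gm10718* was at 0.0189 CPM in the PWS-IC library 4_4_IC, which is 1 count against 0 in the other 3. *Gm10718* was at 0.0688 CPM in the WT library 1_1_IC, which is 4 counts against 0 or 1 in the other 4.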

How the results depend on the processing

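No member was called under any setting. Of 100 alternative values of the members' log2 fold changes in PWS-cr, 97 kept their sign. The 3 that reversed all came without 1_3_Cr, the only WT library of litter 1. They were 0.19 for *Gm10800*, 0.60 for *Gm10801* and 0.62 for *Gm10717*, whose ranges without single libraries began at -1.13, -1.05 and -1.41. *Gm21738* kept its sign there, and *Gm10718* and *Gm19096* fell below the filter and had no value. All 17 alternatives for *Gm10800* in PWS-IC kept a negative sign, between -1.19 and -0.36. Genes called in PWS-cr numbered 7 with DESeq2 on the same genes, 10 with DESeq2 on all genes with a count, 10 without a filter, and 2 to 4 without single libraries. In PWS-IC they numbered 1 and 2 with DESeq2 on these gene sets, 471 without a filter, 53 without 1_3_IC and 1_7_IC, and 0 to 1 without single libraries. For the difference of the models they numbered 3 and 39 with DESeq2, 87 without a filter and 43 without 1_3_IC and 1_7_IC; the cause was not tested. The median log2 span of the tested members was 3.80 to 4.09 in the PWS-cr series under all settings. In the PWS-IC series, where it is that of *Gm10800*, it was 1.69 to 3.98 without single libraries, lowest without 1_3_IC, where it had 1 count. The relation of *Gm10800* with the *Hox* sum in the PWS-IC series no longer passed the correction without the 2 farthest libraries (r = -0.81) or without 1_3_IC and 1_7_IC (r = -0.91), with fewer libraries in each; 55 other alternative values of relations in that series stayed on their side of the threshold. No paired analysis was possible because the labels pair no pups across genotypes; litter is already a term of the fits. The counts of the PWS-IC series, 1 to 47 of *Gm10800* and fewer of the rest, limit what could be seen there.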
